A study of Rattus norvegicus with 9 samples.

Results

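The comparison described here set lungs of mechanically ventilated rats against lungs of spontaneously breathing rats, both groups breathing 100% oxygen. Its members were taken from the sample titles: 2 ventilated samples and 2 spontaneously breathing samples, hybridised to 5 of the 9 arrays of a series of 8 samples. One ventilated sample (letter b) was measured on 2 arrays, which were averaged into 1 sample. The other 4 samples of the series, 2 ventilated and 2 spontaneously breathing rats on 21% oxygen (room air), entered the same model and served for a test of whether the change differed between the oxygen levels. The material was total RNA of rat lung. For strain, age, ventilator settings and the time on oxygen, the sources used here give nothing. Letters a and b are not said to be separate animals, and the p-values below therefore reflect a spread within groups that could be technical.

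A ventilator pushes gas into the lung under positive pressure and stretches the alveolar wall with each breath. Stretched lung cells are known to switch on immediate early genes, which are induced within minutes without new protein synthesis. Many of these genes, but not all, encode transcription factors. Stretched cells are also known to release inflammatory mediators. Breathing pure oxygen is a separate stress: it raises reactive oxygen species in the alveolar epithelium and in the capillary endothelium, the cells that form the gas exchange surface.

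Each array gave 1 deposited intensity per probe set, a group of short oligonucleotides that reads 1 transcript. The arrays had been brought to one overall scale, with trimmed means between 796.3 and 800.7, but not to one shape. The 99th percentile of intensity lay between 7111 and 8352 on the 3 ventilated arrays at 100% oxygen and was 9934 and 12796 on the 2 spontaneous arrays. A spiked control transcript (CreX, 3′ probe set) showed the same order, at 5212 to 6468 against 7087 and 11540. The upper end of the intensity range was thus compressed on the ventilated arrays, and its part in the lower values of bright genes was not tested. The labels of 4 arrays carry an empty lot line. These are both spontaneous 21% arrays and 2 of the 3 ventilated 100% arrays, but neither spontaneous 100% array, so counts below are also given from the arrays without that line, where the ventilated group is 1 array. Control probe sets without a target reached 302.4, and a change from or to values below that depends on the offset of 39.9. Among the increases below, this holds for Nr4a3, Scnn1g, Tff3, Hbegf, Cxcl6 and Cyp1a1, among others. Lung identity was clear in all 4 samples: the surfactant protein gene Sftpa1 read 10230 to 12465.

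Ventilation was accompanied by a broad difference between the groups. Of 5244 tested probe sets, 1413 (26.9%) passed an adjusted p of 0.05 in limma's moderated test with Benjamini-Hochberg adjustment, 868 higher (16.6%) and 545 lower (10.4%) in ventilated lungs. Counted as genes by their brightest probe set, 814 of 3181 (25.6%) were called, 518 higher (16.3%) and 296 lower (9.31%). Every list count below is to be read against these shares of 16.3% and 9.31%. The median log2 change over all tested probe sets was 0.126, which quantile normalization moved to -0.009 and cyclic loess to -0.031, and changes are to be read against that shift. In 2056 genes (64.6%) the samples of the groups did not overlap. The brightest 10% of probe sets (525) held 277 of the lower calls and 24 of the higher ones, with a median log2 change of -0.47, against 0.18 in the rest. The number called fell to 464 without spontaneous sample b, to 512 without ventilated sample a and to 882 without ventilated sample b. A fit without 1 sample leaves its group a lone sample, whose spread is assumed to be that of the other groups, and this holds for each such value below. Only the arrays without the lot line gave 497 calls, 322 higher and 175 lower.

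**Figure D1:**
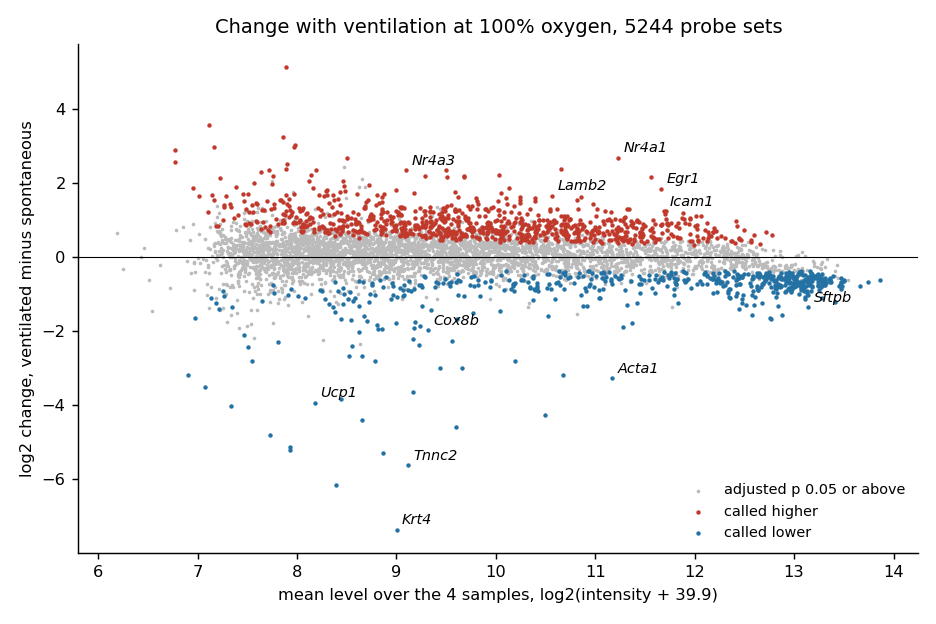
Log2 change of 5244 probe sets between ventilated and spontaneously breathing lungs at 100% oxygen (vertical axis) against their mean level over the 4 samples, log2(intensity + 39.9) (horizontal axis). Red points were called higher and blue points lower at an adjusted p under 0.05. Nr4a1 and Egr1 lie at the top, the muscle genes Tnnc2 and Acta1 and the keratin Krt4 far below the rest, and the brightest probe sets lean downward.

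The immediate early genes had the highest share of increases among the lists plotted by calls, with airway epithelial genes next (53.8% of 13). That order depended on the scaling: under quantile normalization 8 of the 13 airway genes were called higher. Of 34 immediate early genes tested, 19 (55.9%) were called higher, against 16.3% of all tested genes, and 1 was called lower, against 9.31%. Their median log2 change was 0.60, against 0.11 over all genes. The count was 19 under quantile normalization, 19 under cyclic loess and 13 on the arrays without the lot line. Among the members not called were 2 bright ones, Btg1, an antiproliferative gene, with a log2 change of -0.17 (adjusted p = 0.357), and Cebpd, a C/EBP transcription factor, with -0.22 (adjusted p = 0.442). Under quantile normalization both turned to positive values (0.22 and 0.09) that were not called.

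Nr4a1, an Nr4a orphan nuclear receptor gene, showed the largest change of the list by its brightest probe set. Its relatives Nr4a3 and Nr4a2 were also called higher, and values are given for Nr4a1 and Nr4a3 only. Nr4a1 read 1072 and 756 in the spontaneous samples and 6505 and 5636 in the ventilated ones. The groups lay far apart, a 6.48-fold difference on the log2(intensity + 39.9) scale (log2 change 2.70 ± 0.24 SE, adjusted p = 0.000505). Its second probe set gave 2.37 (adjusted p = 4.88e-05). Nr4a3 read 184.5 and 220.3 against 1603 and 894.9. Both ventilated samples were above both spontaneous ones although they differed from each other, and the log2 change was 2.36 ± 0.33 (adjusted p = 0.00346). The other probe set of Nr4a3 was not called (0.22, adjusted p = 0.67). The spontaneous values of 184.5 and 220.3 lie below the 302.4 of controls without a target, so the size of the Nr4a3 change depends on the offset.

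Egr1, a zinc finger factor induced by growth factor and stretch signals, read 1691 and 1640 in the spontaneous samples and 6424 and 5833 in the ventilated ones. The means were 1666 ± 35.9 and 6128 ± 418 (SD, n = 2), with no overlap, a log2 change of 1.85 ± 0.13 SE and an adjusted p of 8.59e-05. Of its 4 tested probe sets, 3 were called higher and the other gave 1.02 (adjusted p = 0.106). Atf3, a stress-induced repressor of the ATF family, read 1175 and 1192 against 3725 and 2907. Its spontaneous samples were nearly equal and both ventilated ones stood above them (1.44 on the log2 scale, adjusted p = 0.00142).

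The AP-1 partners Fos and Jun rose too. Fos read 1585 and 1753 in the spontaneous samples against 3479 and 3334 in the ventilated ones, and Jun 2079 and 2202 against 6020 and 4392. The groups did not overlap for either gene. The log2 changes were 1.01 (adjusted p = 0.00197) and 1.25 (adjusted p = 0.00203). All 3 probe sets of Fos were called, and 2 of 4 for Jun. Myc, a driver of ribosome and cell growth programmes, read 469.6 and 458.3 against 1133 and 1179 (log2 change 1.25, adjusted p = 0.00264), and its other probe set was not called (1.90, adjusted p = 0.0571). Klf4, a Krüppel-like factor of epithelium and endothelium, read 687.2 and 589.1 against 1660 and 1903 (1.43, adjusted p = 0.000632). In Klf4 the ventilated lungs at 100% oxygen stayed below the 2148 and 2079 of spontaneous lungs at 21% oxygen, whereas in the other 7 genes plotted they were the highest of the 4 groups.

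**Figure D2:**
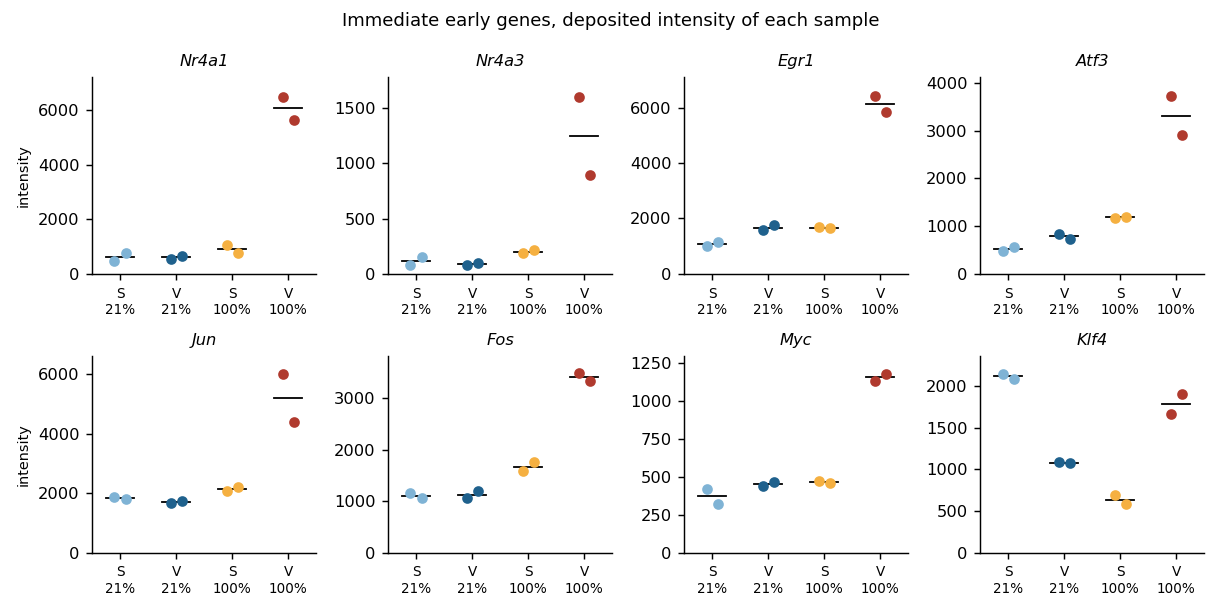
Deposited intensity of 8 immediate early genes in each of the 8 samples, with S for spontaneous breathing, V for mechanical ventilation and the percent of oxygen below. Points are samples and bars are the means of 2 samples. The ventilated 100% samples are highest in all panels but Klf4, where the spontaneous 21% samples are highest.

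Promoter sequences of the list were read to see what its members share in sequence. A promoter here is the 300 bases from 250 before to 50 after the annotated start, from RefSeq on build GRCr8, and 25 of the 34 genes had one. Of the 19 members called higher only 13 had one. Fos, Jun, Atf3 and Nr4a3 were among those without a sequence and were not searched. Both strands were searched for TGACGTCA (cyclic AMP response element), TGANTCA (AP-1), GAANNTTC (heat shock element core), TGACNNNGC (antioxidant response element core), CACGTG (E-box), TATAAA and the CArG box, the site of serum response factor. A CArG box stood in 5 of the 13 promoters of list members called higher (38.5%), in 0 of the 12 other members and in 1.76% of the 2609 promoters of all tested genes. No box overlapped another searched motif. The cyclic AMP and AP-1 sites were found in 0 of the 13, against 2.49% and 5.52% of all promoters. TATAAA stood in 4 of the 13 (30.8%, against 10.2% of all) and in 8 of all 25 members with a promoter. The antioxidant core stood in 3 of the 13 (23.1%, against 15%), and the heat shock core and the E-box in 1 each (7.69%, against 5.1% and 9.2%). Over all genes called higher the CArG share was 3.02%, and over those called lower 2.11%. These matches describe letters in a window and are no evidence of binding. Egr1 and Dusp5 had 2 boxes each and Egr2, Klf6 and Zfp36 1 each. Dusp5 encodes a phosphatase of the ERK kinases, and Egr2 is the close relative of Egr1. These promoters are shown because they carry the boxes nearest to a shared position, and were chosen after the values were seen. The boxes, in capitals, begin 105 and 83 bases before the start in Egr1, 83 bases in Egr2 and 82 and 72 bases in Dusp5. The windows are chr18:26736828-26737127 on the plus strand for Egr1, chr20:21054392-21054691 on the minus strand for Egr2 and chr1:262543524-262543823 on the plus strand for Dusp5.
Egr1: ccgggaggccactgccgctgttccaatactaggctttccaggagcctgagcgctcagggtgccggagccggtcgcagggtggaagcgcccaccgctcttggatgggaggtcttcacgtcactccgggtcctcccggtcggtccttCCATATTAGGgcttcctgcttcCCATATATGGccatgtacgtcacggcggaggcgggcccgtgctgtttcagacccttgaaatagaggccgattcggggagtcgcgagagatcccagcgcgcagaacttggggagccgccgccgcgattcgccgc
Egr2: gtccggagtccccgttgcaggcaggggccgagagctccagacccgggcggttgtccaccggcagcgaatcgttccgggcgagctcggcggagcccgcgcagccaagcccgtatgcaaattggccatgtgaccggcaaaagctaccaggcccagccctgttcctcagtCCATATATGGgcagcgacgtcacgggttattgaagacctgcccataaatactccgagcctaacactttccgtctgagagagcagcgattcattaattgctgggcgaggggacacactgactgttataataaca
Dusp5: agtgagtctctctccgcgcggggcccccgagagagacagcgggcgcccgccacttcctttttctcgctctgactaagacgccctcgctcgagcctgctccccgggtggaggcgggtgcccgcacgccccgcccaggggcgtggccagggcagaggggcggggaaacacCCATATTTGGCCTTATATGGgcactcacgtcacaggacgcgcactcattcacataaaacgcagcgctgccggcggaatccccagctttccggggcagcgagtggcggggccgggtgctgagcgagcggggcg

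Some genes of cytokine signalling were higher in ventilated lungs. Of 16 tested genes of cytokine signalling and feedback, 6 (37.5%) were called higher, against 16.3% of all genes, and 0 lower, while 10 were not called. Nfkbia, the inhibitor that NF-κB itself induces, read 1981 and 1799 against 3655 and 3647. Both ventilated samples were higher by about the same amount (log2 change 0.94, adjusted p = 0.00238). The NF-κB subunit gene Nfkb1 changed by 1.01 (adjusted p = 0.0039), the interleukin-4 receptor gene Il4r by 0.91 (adjusted p = 0.0039) and the receptor kinase gene Jak1 by 1.24 (adjusted p = 0.00642). On the arrays without the lot line the count was 5.

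Icam1, the endothelial and epithelial ligand of leukocyte integrins, read 2081 and 2136 in the spontaneous samples and 5350 and 4804 in the ventilated ones. The groups were well separated, and the log2 change was 1.25 ± 0.11 SE (adjusted p = 0.000445). It was the 1 adhesion gene of 9 tested that was called higher, also on the arrays without the lot line. The integrin subunit gene Itgb1 was called lower, at -0.52 (adjusted p = 0.0165), but it is bright, and both quantile normalization (-0.11) and cyclic loess removed the call. So did leaving out ventilated sample a (adjusted p = 0.109) or spontaneous sample b (0.0669).

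Among 22 cytokines and chemokines, 6 (27.3%) were called higher and 1 (4.55%) lower, against 16.3% and 9.31% of all genes. The membrane-bound chemokine gene Cx3cl1 read 314.9 and 303.1 against 730.7 and 768.1 (log2 change 1.18, adjusted p = 0.00234). Cxcl6, a neutrophil attractant, read 192.4 and 224.5 against 537.3 and 538.7 (1.22, adjusted p = 0.0039). In both genes the ventilated samples agreed closely and stood above the spontaneous ones. Tgfb1, the matrix-inducing cytokine, rose by 1.35 (adjusted p = 0.00787), a call lost without ventilated sample a (adjusted p = 0.0506) or spontaneous sample b (0.0578). Il1a changed by 0.63 (adjusted p = 0.0145) and Ccl5, a T cell attractant, by -0.78 (adjusted p = 0.0108). Il1a lost its call under 6 of the 23 alternatives, among them without ventilated sample a (adjusted p = 0.0865), spontaneous sample a (0.0592) or spontaneous sample b (0.0642). Ccl5 lost it under 4, among them without ventilated sample a (adjusted p = 0.0531) or spontaneous sample b (0.0555). The list's higher count fell to 2 without ventilated sample a, to 2 without spontaneous sample b, and to 3 on the arrays without the lot line.

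The classical acute phase cytokines did not pass the test at 100% oxygen. Il6 read 485.0 and 461.4 in spontaneous and 431.6 and 424.7 in ventilated lungs (log2 change -0.13, adjusted p = 0.662). The monocyte attractant Ccl2 read 1514 and 1810 against 1513 and 1275 (-0.25, adjusted p = 0.283), and Il1b read 2395 and 3413 against 2664 and 2690 (-0.09, adjusted p = 0.764). The Il1b samples overlapped. In spontaneous lungs at 21% oxygen Il6 was at 0 or below in both samples and Ccl2 read 333.6 and 395.6. The ventilated 21% samples read 377.2 and 384.4 for Il6 and 1449 and 1401 for Ccl2.

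Genes of coagulation and vascular tone rose in part. Of 14 coagulation and fibrinolysis genes, 5 (35.7%) were called higher and 0 lower, against 16.3% and 9.31% of all genes. F3, tissue factor, the trigger of coagulation, read 1407 and 1367 against 3444 and 3215. Each pair agreed closely and the groups were far apart (log2 change 1.24 ± 0.11 SE, adjusted p = 0.000463). Plat, tissue plasminogen activator, which starts fibrin breakdown, read 2860 and 2386 against 5743 and 5096 (1.04, adjusted p = 0.00197). The thrombin cofactor Thbd changed by 1.01 (adjusted p = 0.02) and the protease receptor F2rl1 by 0.94 (adjusted p = 0.0234). Thbd lost its call under 6 of 23 alternatives, among them without ventilated sample a (adjusted p = 0.109) or spontaneous sample b (0.125), and its other probe set was not called (0.17, adjusted p = 0.72). F2rl1 lost it under 9 of 22, among them without each of the 4 samples (adjusted p = 0.0612 to 0.101). The count of 5 fell to 2 without ventilated sample a or spontaneous sample b, to 3 without ventilated sample b, and to 2 on the arrays without the lot line.

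Of 20 endothelial and vasoactive genes, 8 (40%) were called higher and 2 (10%) lower, against 16.3% and 9.31% of all genes. Ace, angiotensin-converting enzyme, abundant on lung capillaries, read 2126 and 2470 against 4795 and 4754. Ece1, which activates endothelin, read 3098 and 2668 against 6295 and 6202. Both genes were about doubled in ventilated lungs, with log2 changes of 1.05 (adjusted p = 0.00129) and 1.11 (adjusted p = 0.00218). The natriuretic peptide receptor gene Npr1 changed by 0.78 (adjusted p = 0.0048) and Kdr, the main VEGF receptor, by 1.02 (adjusted p = 0.0139). Ptgir, the prostacyclin receptor, read 487.3 and 741.8 against 201.8 and 276.7. Its ventilated samples were the lower ones (-1.22, adjusted p = 0.0104). Edn1, endothelin itself, changed by 0.50 (adjusted p = 0.028). Kdr lost its call under 3 of 23 alternatives, among them without ventilated sample b (adjusted p = 0.056) or spontaneous sample a (0.0552). Ptgir lost it under 4, among them without ventilated sample a (adjusted p = 0.0603) or spontaneous sample b (0.0673). Edn1 lost it under 8, among them without ventilated sample a (adjusted p = 0.0747), ventilated sample b (0.107) or spontaneous sample b (0.159). Vegfa overlapped between the groups by its brightest probe set (0.25, adjusted p = 0.241), and 1 of its 3 probe sets was called higher. Of the 3 probe sets of Npr1, 2 were called. The count of 8 fell to 4 without ventilated sample a, to 5 without spontaneous sample b, and to 4 on the arrays without the lot line.

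**Figure D3:**
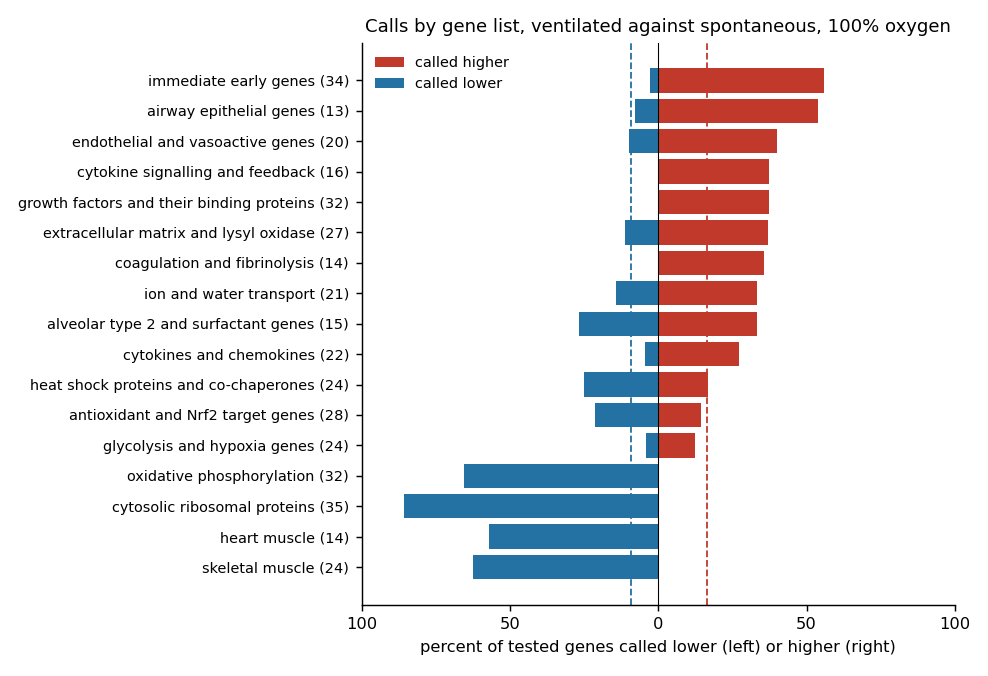
Percent of tested genes called higher (red, right) and lower (blue, left) in each list, with the number tested in parentheses, for ventilated against spontaneously breathing lungs at 100% oxygen. Dashed lines mark the same percentages over all 3181 tested genes, 16.3 and 9.31. Immediate early genes reach 55.9% higher, and the ribosomal and muscle lists have lower calls only.

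Several markers of simple epithelium rose. Of 13 airway epithelial genes, 7 (53.8%) were called higher and 1 lower, with 5 higher on the arrays without the lot line. The simple epithelial keratin gene Krt19 read 1773 and 1889 against 3662 and 3638, and Krt8 read 1145 and 1144 against 2227 and 2153. Both about doubled, with close agreement within each group (0.98, adjusted p = 0.00174, and 0.91, adjusted p = 0.00181). Krt18, the partner of Krt8, changed by 0.82 (adjusted p = 0.00606) and the membrane mucin gene Muc1 by 1.01 (adjusted p = 0.00324). Tff3, a mucus-associated trefoil peptide, read 138.5 and 162.0 against 668.3 and 593.4 (1.80, adjusted p = 0.00342). Its 2 arrays of ventilated sample b read 753.8 and 433.0, and the call was lost on the arrays without the lot line. The club cell secretory protein Scgb1a1 was not called (-0.22, adjusted p = 0.191), and under quantile normalization it was called in the other direction (0.32).

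Among 21 genes of ion and water transport, 7 (33.3%) were called higher and 3 (14.3%) lower, against 16.3% and 9.31% of all genes. The epithelial sodium channel ENaC drives fluid out of the alveolus. Its α subunit gene Scnn1a read 1695 and 1493 in spontaneous and 3829 and 4106 in ventilated lungs. Its γ subunit gene Scnn1g read 175.6 and 115.2 against 552.4 and 551.4. Both subunits were higher in each ventilated sample, by 1.30 ± 0.12 SE (adjusted p = 0.000521) and 1.69 ± 0.21 SE (adjusted p = 0.00197) on the log2 scale. The spontaneous Scnn1g values lie below the 302.4 of controls without a target, so the size of its change depends on the offset. The chloride-loading cotransporter Slc12a2 changed by 0.93 (adjusted p = 0.00556), and by 0.22 in its other probe set (adjusted p = 0.644). Aqp5, the apical water channel, changed by 0.48 (adjusted p = 0.0327), a call lost under 13 of the 23 alternatives, among them without any 1 of the 4 samples (adjusted p = 0.0716 to 0.131) or without ventilated 21% sample a or b (0.053). Its other probe set was not called (0.27, adjusted p = 0.229). The count of 7 fell to 4 without ventilated sample a, to 3 without ventilated sample b or spontaneous sample b, and to 3 on the arrays without the lot line.

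The surfactant genes of alveolar type 2 cells did not move as one. Sftpb, needed for the surfactant film, read 11558 and 17928 in spontaneous and 4591 and 6926 in ventilated lungs. The groups did not overlap, but the samples within each group differed widely (-1.36 ± 0.25 SE, adjusted p = 0.00806). Sftpc, the hydrophobic surfactant protein specific to these cells, read 6020 and 9660 against 3543 and 4262 (-0.97, adjusted p = 0.0233). The collectin genes Sftpa1 and Sftpd were not called, at -0.21 (adjusted p = 0.319) and -0.23 (adjusted p = 0.244). Under quantile normalization both were called higher, at 0.42 and 0.38. Ager, the type 1 cell receptor RAGE, read 8371 and 10084 against 4999 and 6094 (-0.74, adjusted p = 0.0133). On the arrays without the lot line Sftpb, Sftpc and Ager changed by -0.81, -0.62 and -0.40, with adjusted p of 0.124, 0.211 and 0.231. Without ventilated sample a the 3 calls were lost as well (adjusted p = 0.0543, 0.125 and 0.0931). Sftpc lost its call also without ventilated sample b (adjusted p = 0.0543) or spontaneous sample b (0.119), and Ager without spontaneous sample b (0.0694). All 5 genes are among the brightest signals, and the part of the compressed bright range in their values was not tested. Nkx2-1, the factor that drives surfactant genes, is less bright and changed by 0.60 (adjusted p = 0.0173). It lost its call under 6 of the 23 alternatives, among them without ventilated sample a (adjusted p = 0.0516), ventilated sample b (0.077) or spontaneous sample b (0.103). Of the 15 alveolar type 2 genes tested, 5 were called higher and 4 lower, and on the arrays without the lot line 1 and 0.

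Part of the extracellular matrix genes rose. Of 27 extracellular matrix genes, 10 (37%) were called higher and 3 lower, with 7 higher on the arrays without the lot line. Lox, lysyl oxidase, which crosslinks collagen and elastin, read 2608 and 2500 against 5480 and 5340. Its values doubled with little spread (1.07 ± 0.11 SE, adjusted p = 0.00079), and 2 of its 4 probe sets were called. Eln, elastin, the recoil protein, read 4113 and 4008 against 7072 and 7594 (0.84, adjusted p = 0.00197), and Fn1, fibronectin, read 4021 and 3701 against 8113 and 7254 (0.98, adjusted p = 0.00197). The laminin subunit gene Lamb2 read 891.8 and 736.2 against 2758 and 2551 (1.66, adjusted p = 0.000308), whereas its other probe set gave 0.40 (adjusted p = 0.494). The gelatinase gene Mmp2 changed by 1.10 (adjusted p = 0.00234), and by 0.11 in its other probe set (adjusted p = 0.636). Col1a1, the main collagen chain, overlapped between the groups by its brightest probe set (0.04, adjusted p = 0.88), which quantile normalization moved to 0.68 (adjusted p = 0.00968). Of its 4 probe sets 2 were called higher (1.17, adjusted p = 0.00397, and 0.70, adjusted p = 0.0279). Mgp, an inhibitor of calcification and among the brightest genes, was called lower (-0.83, adjusted p = 0.0206). Its call was lost under 7 of 22 alternatives, among them without ventilated sample a (adjusted p = 0.0988), ventilated sample b (0.0708) or spontaneous sample b (0.0747).

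Of 32 growth factors, receptors and binding proteins, 12 (37.5%) were called higher and 0 lower, against 16.3% and 9.31% of all genes. The receptor genes Fgfr1 and Fgfr4 read 612.9 and 558.3 against 1716 and 1372, and 345.2 and 411.5 against 942.5 and 988.8. Both receptors were higher in each ventilated sample (1.33, adjusted p = 0.00152, and 1.26, adjusted p = 0.00197). Igfbp3, the main carrier of IGF-I, read 463.9 and 306.1 against 1250 and 1524 (1.76, adjusted p = 0.00513). Hbegf, an EGF receptor ligand, read 169.6 and 103.8 against 554.8 and 462.9 (1.66, adjusted p = 0.00749). Its call was lost on the arrays without the lot line and without spontaneous sample b (adjusted p = 0.0538). The count of 12 fell to 5 without ventilated sample a, to 4 without spontaneous sample b, and to 5 on the arrays without the lot line.

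The stress response genes had no common direction. Of 28 antioxidant genes, 4 (14.3%) were called higher and 6 (21.4%) lower, and of 24 heat shock genes, 4 (16.7%) and 6 (25%), against 16.3% and 9.31% of all genes. On the arrays without the lot line each list had 1 higher and 0 lower. Hmox1, the haem-degrading enzyme induced by oxidants, read 4392 and 3554 in spontaneous and 5755 and 5691 in ventilated lungs. The ventilated samples were modestly higher (0.53 ± 0.14 SE, adjusted p = 0.0292), and the call was lost under 7 of the 23 alternatives, among them without ventilated sample a (adjusted p = 0.117), ventilated sample b (0.0861) or spontaneous sample b (0.168). Both groups stood above the 1199 to 1517 of the 4 samples at 21% oxygen. Sod3, the extracellular superoxide dismutase, read 1606 and 1485 against 2837 and 3039 (0.91, adjusted p = 0.00213). The bright genes Sod1, the cytosolic form, and Gpx3, a secreted glutathione peroxidase, were called lower (-0.57, adjusted p = 0.0141, and -0.76, adjusted p = 0.0155). Sod1 turned to 0.019 under quantile normalization. Both calls were lost without ventilated sample a (adjusted p = 0.0874 and 0.0921) or ventilated sample b (0.0541 and 0.0517), and that of Gpx3 without spontaneous sample b (0.057).

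The heat shock genes called went both ways. Hspb1, the small heat shock protein, read 14109 and 19386 against 6148 and 8308, and Hsp90ab1, a constitutive HSP90, read 12192 and 17467 against 6113 and 7477. Both were lower in each ventilated sample (-1.22, adjusted p = 0.00512, and -1.11, adjusted p = 0.00642). Hspa1a, the stress-inducible HSP70, read 8920 and 12655 against 5617 and 6154 (-0.85, adjusted p = 0.00949). On the arrays without the lot line these changes were -0.77, -0.76 and -0.64, with adjusted p of 0.102, 0.116 and 0.135. These 3 genes are among the bright ones, and quantile normalization gave -0.67, -0.61 and -0.49, with adjusted p of 0.0218, 0.00689 and 0.00936. Of the 4 probe sets of Hsp90ab1, 3 were called lower. Without ventilated sample a Hsp90ab1 and Hspa1a lost their calls (adjusted p = 0.0515 and 0.0619). The dimmer Hspa4, an HSP70 cofactor, read 1077 and 1073 against 2057 and 1859 (0.84, adjusted p = 0.00586). The mitochondrial Hspa9 changed by 0.90 (adjusted p = 0.0109; 0.78 and 0.156 in its other probe set), a call lost under 5 of the 23 alternatives, among them without ventilated sample a (0.0686) or spontaneous sample a (0.051). Ppp1r15a, which restarts translation after stress, rose by 1.02 (adjusted p = 0.00362). A heat shock element core was found in 10 of the 19 heat shock promoters at hand (52.6%), against 5.1% of all.

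Enzymes that handle xenobiotics or make lipid and gas mediators went both ways. Of 19 xenobiotic genes, 3 (15.8%) were called higher and 3 (15.8%) lower, against 16.3% and 9.31% of all genes. Of 20 genes of prostanoid and nitric oxide synthesis, 3 (15%) were called higher and 2 (10%) lower, shares near those of all genes. On the arrays without the lot line these were 2 and 1, and 1 and 1. Cyp1b1, a target of the aryl hydrocarbon receptor, read 704.0 and 621.3 against 1514 and 1515 (1.15, adjusted p = 0.00213). Cyp1a1, the classical target of that receptor, read 144.2 and 117.2 against 441.1 and 319.0 (1.29, adjusted p = 0.00512). All samples at 100% oxygen stayed below the 596.5 to 1215 of Cyp1a1 at 21% oxygen. Nos2, inducible nitric oxide synthase, read 200.5 and 318.2 against 569.8 and 611.4 (1.10, adjusted p = 0.0185), a call lost under 8 of 22 alternatives, among them without ventilated sample a (0.0718), ventilated sample b (0.0666) or spontaneous sample a (0.0808). Cyp2a3, a cytochrome of the airways, read 1961 and 1930 against 1211 and 1142, lower in both ventilated samples (-0.71, adjusted p = 0.00602). The lipoxygenase gene Alox15 read 2431 and 2547 against 1442 and 1546 (-0.72, adjusted p = 0.0104), a call lost without ventilated sample a or spontaneous sample b. The bright Cyp2b2 was called lower (-0.62, adjusted p = 0.0119) but not under quantile normalization (-0.06) or without ventilated sample a, and its other probe set was called higher (0.61, adjusted p = 0.0104).

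Genes of the respiratory chain were lower as a list. Of 32 tested, 21 (65.6%) were called lower, against 9.31% of all genes, and 0 higher, with a median log2 change of -0.59. Quantile normalization gave 20 and cyclic loess 16. Cox8b, the muscle isoform of a cytochrome oxidase subunit, read 1178 and 1274 against 285.4 and 278.4, and Cox6a2, another muscle isoform, read 2337 and 2164 against 896.9 and 1120. Both are also in the skeletal muscle list described below (-1.98, adjusted p = 0.000211, and -1.13, adjusted p = 0.00286). The complex I subunit gene Ndufs6, which all tissues use, read 3368 and 3737 against 2043 and 2191 (-0.74, adjusted p = 0.00521). Atp5f1e, an ATP synthase subunit, read 8340 and 9070 against 5226 and 5456 (-0.70, adjusted p = 0.00462). The count of 21 fell to 5 without ventilated sample a, to 13 without ventilated sample b, to 9 without spontaneous sample b, to 4 with the brightest 10% of probe sets left out, and to 4 on the arrays without the lot line. Members among the brightest 10% are untested when that part is left out, so its count of 4 is not made by lost calls alone. The summed muscle markers and the compressed bright range both move with this list, and their part in it was not tested.

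Cytosolic ribosomal protein genes are almost all bright, and 30 of 35 (85.7%) were called lower and 0 higher, with a median of -0.67. Rpsa read 11128 and 13225 against 6861 and 7220, and Rpl6 read 9019 and 13092 against 5893 and 5834. The ventilated samples were lower in both (-0.79, adjusted p = 0.00749, and -0.91, adjusted p = 0.01). Rps10 changed by -0.76 (adjusted p = 0.00917). A count covers only the members that a setting tests, and leaving out the brightest 10% takes bright members out of the test. The ribosomal count depended on the scaling: it was 8 under quantile normalization and 9 under cyclic loess, with medians of -0.18 and -0.31. It was 1 with the brightest 10% left out, 1 without ventilated sample a, 8 without ventilated sample b, 9 without spontaneous sample b and 0 on the arrays without the lot line. Without ventilated sample a the adjusted p was 0.0547 for Rpsa, 0.0527 for Rpl6 and 0.0722 for Rps10.

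The largest decreases of the whole comparison were in markers of tissues other than lung. Of 24 skeletal muscle genes, 15 (62.5%) were called lower, against 9.31% of all genes, and 0 higher, with a median log2 change of -1.09. Fast troponin C, Tnnc2, read 3674 and 4065 in spontaneous and 23.8 and 58.5 in ventilated lungs. Fast troponin I, Tnni2, read 1397 and 1490 against samples at 0 or below. Skeletal actin, Acta1, read 7525 and 6713 against 649.7 and 753.3, and muscle creatine kinase, Ckm, read 4936 and 4780 against 475.6 and 532.7. Ventilated lungs thus held a small part of the signal of these genes, with adjusted p of 5.27e-06 for Tnnc2, 1.68e-05 for Tnni2, 3.62e-06 for Acta1 and 1.63e-05 for Ckm. The myosin light chain gene Myl11 changed by -4.58 (adjusted p = 1.63e-05). Myl3, a myosin light chain gene of the heart list, changed by -4.39 (adjusted p = 4.24e-05). The ventilated values of Tnnc2, Tnni2, Myl11 and Myl3 lie below background, and their sizes depend on the offset: Tnnc2 changed by -6.40 to -5.04 over the alternatives.

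The summed intensity of the muscle list, over its 33 genes on the array, was 42312 and 41852 in the 2 spontaneous samples and 11138 and 11207 in the 2 ventilated ones. At 21% oxygen it was 14903 and 14956 in spontaneous and 18734 and 18805 in ventilated lungs. The spontaneous group at 100% oxygen is therefore the one that stands apart. The 2 samples of a group differed by between 0.356% and 1.09% in this sum, in all 4 groups, a closeness that the labels do not account for. On the arrays without the lot line 13 muscle genes were called lower. Bulk RNA cannot tell fewer cells of a type from less RNA per cell.

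Markers of heart muscle and of squamous lining were also called lower, and fat markers went both ways. Of 14 heart genes, 8 (57.1%) were called lower and 0 higher, with the largest fall in Myl3, given above. Atrial myosin light chain Myl7 read 8314 and 8410 against 3858 and 3772, and cardiac troponin I, Tnni3, read 3162 and 2942 against 1419 and 1405. The ventilated samples matched the spontaneous 21% samples, at 3811 and 3840 for Myl7 and 1449 and 1474 for Tnni3. The heart list, 17 genes on the array, summed to 32784 and 30649 against 15956 and 14910. The heart count was 5 without ventilated sample b, 5 without spontaneous sample a and 9 on the arrays without the lot line. Krt4, a keratin of squamous lining such as the oesophagus, read 6289 and 6826 in the spontaneous samples. It was at 0 or below in both ventilated ones (adjusted p = 5.34e-07). Sprr1a, a cornified envelope precursor, read 3937 and 3974 against 1306 and 1923 (-1.30, adjusted p = 0.0167), a call lost under 6 of the 23 alternatives, among them without ventilated sample a (0.101), spontaneous sample a (0.0637) or spontaneous sample b (0.0906).

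Of 3 squamous genes tested, 2 were called lower, and 1 on the arrays without the lot line. The 8 squamous genes on the array summed to 11421 and 11855 in spontaneous and 1785.5 and 2720.5 in ventilated lungs. Of 12 fat genes tested, 4 were called lower and 2 higher, the same numbers as on the arrays without the lot line, and the list summed to 18949 and 20218 against 15306 and 17159. The 2 fat genes called higher were Lipe and Lpl, with log2 changes of 0.60 to 1.33 and 0.44 to 0.99 over their tested probe sets. Lep was not called (-0.44, adjusted p = 0.231). The brown fat uncoupling protein Ucp1 read 1099 and 1087 in spontaneous and 37.8 and 31.1 in ventilated lungs (-3.93 ± 0.15 SE, adjusted p = 3.25e-06). The fat fatty acid carrier Fabp4 read 1368 and 1158 against 33.3 and 77.5, and the lipid droplet gene Cidea 1005 and 782.8 against 67.7 and 157.5. Ucp1, Fabp4 and Cidea were near the floor of the array in ventilated lungs, well below the 302.4 of controls without a target. The sizes of their changes therefore depend on the offset. With offsets of 1% and 10% of the trimmed mean Ucp1 changed by -4.71 and -3.36 and Fabp4 by -4.49 and -3.35. H19, a fetal and muscle-enriched RNA, read 1866 and 1941 against 176.4 and 247.6 (adjusted p = 2.9e-05). The part of muscle, squamous lining and fat in the other lists was not tested, beyond the muscle isoforms named with the respiratory chain.

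**Figure D4:**
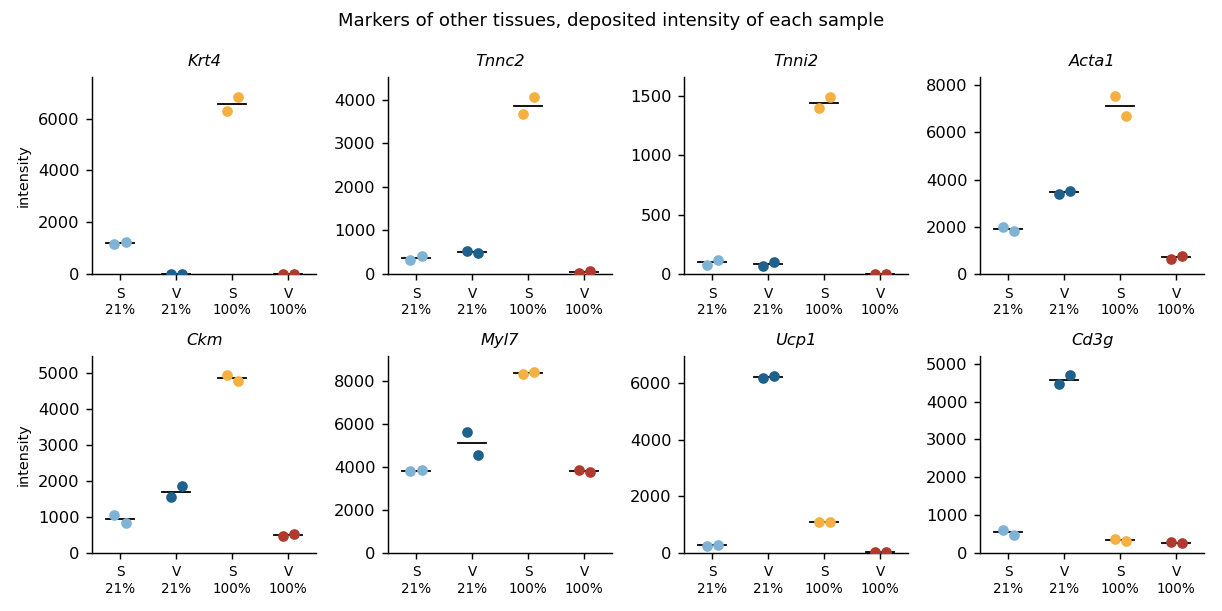
Deposited intensity of 8 markers of squamous lining (Krt4), skeletal muscle (Tnnc2, Tnni2, Acta1, Ckm), heart (Myl7), brown fat (Ucp1) and T cells (Cd3g) in each of the 8 samples, with S for spontaneous breathing, V for ventilation and the percent of oxygen below. Points are samples and bars are the means of 2 samples. The spontaneous 100% samples are highest for squamous and muscle genes, and the ventilated 21% samples for Ucp1 and Cd3g.

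Neutrophil markers went both ways, and red cell genes were called in 1 direction. Of 10 neutrophil genes, 3 were called higher and 2 lower, and on the arrays without the lot line 2 and 0. Lcn2, made by neutrophils and stressed epithelium, read 2374 and 2124 against 3997 and 4433 (0.89, adjusted p = 0.00294). The calprotectin genes S100a8 and S100a9 were called lower at -0.51 (adjusted p = 0.0109) and -0.54 (adjusted p = 0.0232), changes of -0.015 and -0.039 under quantile normalization. Both calls were lost without ventilated sample a (adjusted p = 0.0754 and 0.117), and that of S100a9 without ventilated sample b (0.0768) or spontaneous sample b (0.0938). The T cell genes Cd3g and Lck were not called (-0.34, adjusted p = 0.165, and -0.42, adjusted p = 0.23). Lck was called lower without spontaneous 21% sample a (adjusted p = 0.0317) or b (0.0309), and Cd3g under both scalings tried. Hbb, β-globin, read 8183 and 13133 against 2567 and 4907 (-1.56, adjusted p = 0.0143). Its samples did not overlap but varied within each group, and on the arrays without the lot line the change was -0.76 (adjusted p = 0.186). Its call was lost without ventilated sample a (adjusted p = 0.0825) or spontaneous sample b (0.0934). It is among the bright genes, and quantile normalization gave -1.44 (adjusted p = 0.0151). Of 7 red cell genes tested, 4 were called lower and 0 higher, with 2 lower under quantile normalization, 1 under cyclic loess and 0 on the arrays without the lot line. The summed list read 35931 and 46240 against 21662 and 24452.

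The change with ventilation differed between 100% and 21% oxygen for 1438 of 5244 probe sets (27.4%), by the same fit's test of the difference, 888 (16.9%) in the direction of higher and 550 (10.5%) of lower at 100%. Quantile normalization gave 714 and 679, and cyclic loess 657 and 682. The lower count fell to 345 without ventilated 21% sample a and to 338 without ventilated 21% sample b. With the lot line as a block 151 probe sets were called. Counted as genes, 523 (16.4%) and 336 (10.6%) of 3181 were called. Of the immediate early genes, 17 of 34 were called with the larger change at 100% oxygen and 2 with the smaller. Nr4a1 changed by 2.70 at 100% and by 0.02 at 21% oxygen, a difference of 2.67 (adjusted p = 0.00145). For Egr1 the changes were 1.85 and 0.63, and the difference was 1.23 (adjusted p = 0.00242). Atf3 differed by 0.90 (adjusted p = 0.0222).

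Another set of genes went opposite ways at the 2 oxygen levels. Aebp1, a matrix-associated regulator of stromal cells, read 463.4 and 257.7 in spontaneous and 1550 and 1860 in ventilated lungs at 100% oxygen. At 21% it read 2154 and 1802 in spontaneous and 433.1 and 205.4 in ventilated lungs. High values thus stood in 2 groups, ventilated at 100% and spontaneous at 21%. The spectrin gene Sptan1, the guanine nucleotide exchange factor gene Iqsec1 and the smooth muscle myosin gene Myh11 had the same order, with changes at 100% oxygen of 2.23, 2.16 and 1.88 and at 21% oxygen of -1.85, -2.23 and -1.94. Some genes described above also had changes of opposite sign: Lamb2 changed by 1.66 and -1.76, Fn1 by 0.98 and -1.44, Ace by 1.05 and -1.16, Ece1 by 1.11 and -1.21 and Scnn1a by 1.30 and -1.23. These 2 groups are also the ones whose arrays carry the lot line. The array of ventilated sample b without that line read 1792 for Aebp1, against 1929 on the array with it, and 1958 against 2037 for Sptan1. These are 2 genes on 2 arrays of 1 sample, and Tff3, described above, differed more between the same arrays. With the lot line as a block, 151 probe sets were called for the difference between oxygen levels, in place of 1438. The part of the lot line in this order of groups was not tested. Trappc10, a vesicle tethering subunit, read 101.5 and 0 or below in spontaneous and 747.1 and 611.8 in ventilated lungs at 100% oxygen. The spontaneous values are below background, so the size of its change depends on the offset (3.25, and 2.33 to 4.52 over the alternatives), and the call was lost with no filter on low signal (adjusted p = 0.0516).

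**Figure D5:**
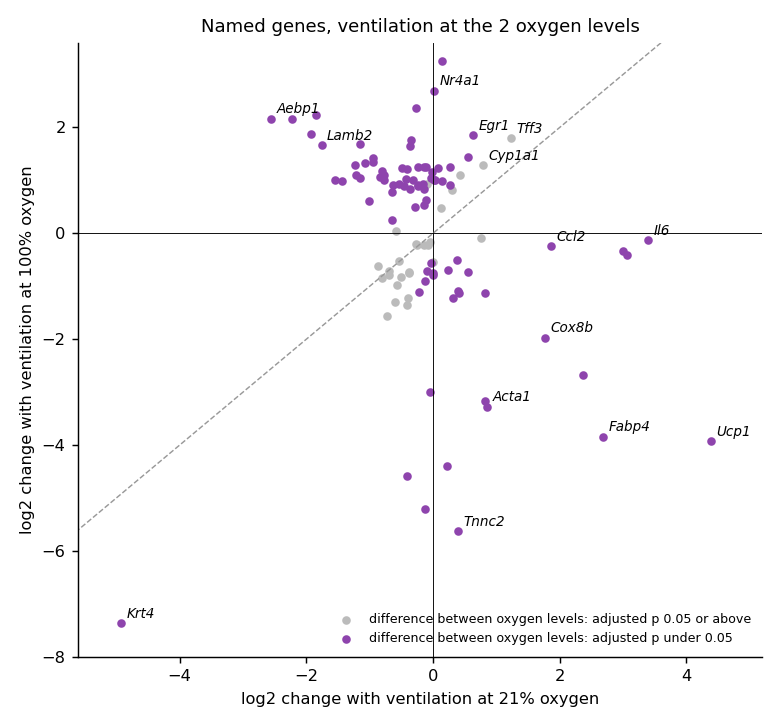
Log2 change with ventilation at 100% oxygen (vertical axis) against that at 21% oxygen (horizontal axis) for 110 of the genes named in the text, each point a gene. Purple points had an adjusted p under 0.05 for the difference between the oxygen levels, and the dashed line marks equal change. Nr4a1 lies on the vertical zero line, Lamb2 and Aebp1 in the upper left and Ucp1 in the lower right.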

How the data were processed

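The series measured total RNA of rat lung on an oligonucleotide array whose control probe sets carry the AFFX prefix. The deposited table holds 1 intensity per probe set and array, on a linear scale with values below 0. Software, build and detection calls are not given in the sources used here. Values were set to at least 0, 39.9 (5% of the mean trimmed mean) was added, and log2 was taken, with no further scaling. Control probe sets (59) and the dimmest 40% of the others by mean were left untested, leaving 5244 of 8740. limma 3.58.1 in R 4.3.3 fitted 4 group means over 8 samples (4 residual degrees of freedom, variance trend) and tested ventilated minus spontaneous at 100% oxygen, and its difference from 21%, two-sided, with Benjamini-Hochberg adjustment and calls at an adjusted p under 0.05. The number of arrays, 9, limits the precision. A gene was read from its brightest probe set with a single symbol in the platform annotation. Of the 8740, 7006 had 1 symbol, 308 several and 1426 none. Another 1555 genes fell below the filter by that probe set. The named genes were taken by a written rule: up to 15 of the largest called changes in each direction with a mean of at least 500, up to 5 called and 2 not called members of each of 44 lists, 32 genes set by name and 8 of the largest differences between oxygen levels. Part of the 270 chosen are printed, and Dusp5, Egr2, Klf6 and Zfp36 were added for their promoters. The comparison, lists and members were chosen with earlier results of these data known. No set test was run. The fit was tested on simulated data. Alternatives are listed with the results. Figures were drawn with matplotlib 3.10.9.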

Additional observations from a re-analysis of the deposited data

Results flagged for a closer look

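The change with ventilation was tested for a difference between 100% and 21% oxygen. Of the 110 genes named, 83 passed an adjusted p of 0.05 in that limma test, 64 of them with changes of opposite sign. That 64 counts signs alone, and neither change had to be called. Some changes at 21% oxygen were near 0, such as 0.006 for Rps10, -0.013 for Cyp1b1 and -0.027 for Plat. Values are the log2 change at 100% minus that at 21% oxygen. Samples at 21% oxygen enter each value, so a gene can differ because of either pair of groups.

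The 8 immediate early genes described above differed upward, whereas over their list 17 of 34 differed upward and 2 downward: Nr4a1 by 2.67, Nr4a3 by 2.63, Klf4 by 2.37, Jun by 1.36, Egr1 by 1.23, Fos by 0.99, Myc by 0.98 and Atf3 by 0.90. In signalling and adhesion genes the differences were 1.10 for Nfkbia, 0.98 for Nfkb1, 1.53 for Il4r, 1.73 for Jak1, 1.40 for Icam1, 1.99 for Cx3cl1, 1.64 for Cxcl6, 2.31 for Tgfb1 and 0.75 for Il1a. Il6 (-3.53) and Ccl2 (-2.11) differed the other way, with changes of 3.40 and 1.86 at 21% oxygen. The spontaneous 21% samples were the lowest of the series for both genes. The ventilated 21% samples did not exceed the range of the samples at 100% oxygen. Il6 was at 0 or below in the spontaneous 21% samples, so its value depends on the offset.

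Vascular and coagulation genes differed by 1.16 for F3, 1.07 for Plat, 2.57 for Thbd, 2.20 for Ace, 2.32 for Ece1, 0.78 for Edn1, 1.42 for Npr1, 1.44 for Kdr, 0.89 for Vegfa and -1.53 for Ptgir. Epithelial and transport genes differed by 0.83 for Krt19, 0.64 for Krt8, 1.78 for Muc1, 2.53 for Scnn1a, 2.85 for Scnn1g, 1.47 for Slc12a2 and 1.61 for Nkx2-1. Matrix and growth factor genes differed by 3.42 for Lamb2, 1.91 for Lox, 2.43 for Fn1, 1.21 for Eln, 1.87 for Mmp2, 2.41 for Fgfr1, 2.11 for Igfbp3, 2.01 for Hbegf and 1.51 for Fgfr4. Among the largest increases the differences were 4.73 for Aebp1, 4.39 for Iqsec1, 4.08 for Sptan1, 3.82 for Myh11 and 3.11 for Trappc10.

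Stress and metabolic genes differed by 0.67 for Hmox1, 1.15 for Sod3, -0.54 for Sod1, -0.89 for Hsp90ab1, 0.99 for Hspa4, 1.14 for Hspa9, 1.34 for Ppp1r15a, 1.16 for Cyp1b1 and -0.63 for Alox15. In the respiratory chain and ribosome the values were -3.75 for Cox8b, -1.95 for Cox6a2, -1.29 for Ndufs6, -0.93 for Atp5f1e, -0.78 for Rpsa, -0.78 for Rpl6 and -0.76 for Rps10.

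Markers of other tissues gave some of the largest differences: -8.32 for Ucp1, -6.53 for Fabp4, -6.02 for Tnnc2, -5.08 for Tnni2, -5.03 for Cidea, -4.61 for Myl3, -4.18 for Myl11, -4.12 for Acta1, -4.00 for Ckm, -2.96 for H19, -2.44 for Krt4, -1.53 for Myl7 and -1.48 for Tnni3. Tnni2 and Krt4 were listed at 0 in ventilated lungs, and Ucp1, Fabp4, Tnnc2, Cidea, Myl3, Myl11 and H19 lay below the background of 302.4 there. The sizes and the order of these values therefore depend on the offset. The T cell genes Cd3g (-3.34) and Lck (-3.47) were high in the ventilated 21% samples, where Cd3g read 4467 and 4691. The neutrophil-associated genes Lcn2 (1.35) and S100a8 (-0.89) differed in opposite directions.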

How the results depend on the processing

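Each result was recomputed under 23 alternatives. The fit with the lot line as a block used 9 arrays, with both arrays of ventilated sample b entered as if separate samples. For the named genes its log2 changes at 100% oxygen equalled those on arrays without the line, such as 2.63 for Nr4a1 and -0.81 for Sftpb. Both settings thus give the same estimate, from the 1 ventilated array without that line, and are not separate checks. Of the 98 named genes called, 62 kept direction and call under each alternative that tested them, and 181 gene values lost a call. Under quantile normalization Sftpa1 (0.42), Sftpd (0.38), Scgb1a1 (0.32) and Sod1 (0.019) changed sign, as did Btg1 (0.22) and Cebpd (0.09), which were not called. The count of 1413 probe sets (868 higher, 545 lower) was 875 in all and 182 lower with the brightest 10% left out, 470 (340 and 130) with the lot line as a block, 497 (322 and 175) on arrays without it, 796 (568 and 228) with no filter, and 551 higher under cyclic loess. Leaving out 1 sample gave 464 to 1423 (303 to 884 higher, 161 to 539 lower). With the lot line as a block, which rests on the 1 ventilated array without that line, the difference between oxygen levels had 151 calls in place of 1438. Leaving out 1 sample gave 980 to 1318.

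With the lot line as a block the counts were 3 for cytokines and chemokines, 4 for endothelial, 2 for coagulation, 3 for ion transport, 6 for growth factor, 6 for respiratory chain and 3 for ribosomal genes. On arrays without that line they were 3, 4, 2, 3, 5, 4 and 0. Leaving out the brightest 10% leaves those probe sets untested, as the 60% filter does with the dimmest. Counts under both settings are of the members still tested. Leaving out the brightest 10% gave 5 endothelial, 3 coagulation, 6 matrix, 4 respiratory chain, 1 ribosomal and 5 heart genes. No filter gave 2 coagulation, 7 growth factor, 9 respiratory chain, 4 ribosomal and 5 heart genes. Cyclic loess gave 4 endothelial, 3 coagulation, 4 ion transport and 9 ribosomal genes, and quantile normalization 8 ribosomal genes. The 60% filter gave 7 growth factor genes, a fit with no variance trend 13 respiratory chain genes, and an adjusted p under 0.10 gave 10 cytokine signalling genes. Leaving out 1 sample gave 2 to 5 cytokine and chemokine, 4 to 8 endothelial, 2 to 5 coagulation, 3 to 7 ion transport, 4 to 12 growth factor, 5 to 21 respiratory chain, 1 to 30 ribosomal and 5 to 9 heart genes. The other counts of immediate early, cytokine signalling, airway, matrix and skeletal muscle genes stayed within 1.5 times. The causes of these shifts were not tested.

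Letters a and b are shared across groups, but the correlations of the letter deviations between groups lay between -0.128 and 0.066. No deviation common to a letter was visible, which does not settle whether the letters pair the samples. With the letter as a replicate block 1213 probe sets were called, 742 higher and 471 lower, and 1265 for the difference between oxygen levels. Depth is not defined for intensities, and the 302.4 reached by controls without a target bounds what low signals can show.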
